A study of Mus musculus with 18 samples.

Results

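The long noncoding RNA (lncRNA) genes Malat1, Neat1, Meg3, Kcnq1ot1, H19, Gas5, Snhg1 and Snhg12, were followed through 18 RNA-seq libraries of mouse adipocytes. They were taken as a list of named genes, 8 of the 33440 genes to which reads were assigned, and 9910 of those genes are annotated as lncRNA. The study asked which genes respond to IRF3, a transcription factor of innate immunity, in adipocytes, and all mice were of the C57BL/6 strain. In the first experiment, stromal vascular fraction (SVF) cells from the inguinal fat of IRF3-2D mice, 4 to 6 weeks old, were differentiated into adipocytes in culture. These cells carry a constitutively active Irf3 allele that stays silent until Cre acts. Transduction on day 6 was with AAV-GFP-Cre (FI3OE, 3 libraries) or with AAV-GFP alone (WT, 3 libraries), and experiments were done on day 8, so that the WT cells also hold the silent allele and FI3OE cells differ from them in Cre as well. In the second experiment, translating ribosome affinity purification (TRAP) was applied to frozen epididymal fat (eWAT) of Ad-NuTRAP mice (WT, 6 libraries) and FI3KO-Ad-NuTRAP mice (FI3KO, 6 libraries), both fed a high-fat diet for 8 weeks at thermoneutrality, 30 °C. In TRAP, a GFP-tagged ribosomal protein made only in cells with Adipoq-Cre is pulled down from a cleared lysate, and FI3KO mice lack Irf3 in those same cells. WT TRAP and WT SVF-derived libraries therefore differ in depot, genotype, age, diet, culture, AAV transduction, donors, their sex and RNA fraction together. These cannot be told apart.

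Malat1 and Neat1 are retained in the nucleus, where Malat1 gathers in nuclear speckles rich in splicing factors and the long form of Neat1 is the scaffold of paraspeckles. Meg3, H19 and Kcnq1ot1 are imprinted RNAs, read from a single parental allele. Meg3 and H19 are made from the maternal allele, and Kcnq1ot1 from the paternal allele, where it silences its neighbours. Gas5, Snhg1 and Snhg12 are host genes whose introns hold small nucleolar RNAs (snoRNAs), the guides of rRNA modification. Their introns are cut out for the snoRNAs, while the spliced exons reach the cytoplasm, are bound by ribosomes and are broken down by nonsense-mediated decay.

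Retained-intron transcripts took a smaller share of Gas5 and Snhg1 reads in every WT TRAP than in every WT SVF-derived library (adjusted exact permutation p = 0.0714). For Snhg12, which has no form annotated so, 2 transcripts were picked after their values were seen and not tested. The first exon junction of a spliced transcript and of a transcript that keeps the intron is shown for each host gene. Sequences are those of GRCm38 on the plus strand, 60 bases each, with kept intron in capitals. The Gas5 bases start at chr1:161035170, those of Snhg1-211 and Snhg1-215 at chr19:8723482 and chr19:8723487, and those of Snhg12 at chr4:132308883.
Gas5-224, spliced: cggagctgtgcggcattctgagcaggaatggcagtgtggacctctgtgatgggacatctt
Gas5-218, intron kept: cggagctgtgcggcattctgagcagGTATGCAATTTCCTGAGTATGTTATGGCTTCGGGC
Snhg1-211, spliced: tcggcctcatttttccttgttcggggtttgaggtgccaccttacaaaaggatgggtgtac
Snhg1-215, intron kept: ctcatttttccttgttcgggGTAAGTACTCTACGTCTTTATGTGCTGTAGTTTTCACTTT
Snhg12-206, spliced: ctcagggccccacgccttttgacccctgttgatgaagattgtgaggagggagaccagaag
Snhg12-210, intron kept: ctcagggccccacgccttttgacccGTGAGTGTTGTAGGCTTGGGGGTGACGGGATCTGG
Bases that are intron in the spliced partner make up 80.5% of Gas5-218 (2556 nt), 78.3% of Snhg1-215 (2728 nt) and 60.5% of Snhg12-210 (1538 nt).

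snoRNA host genes as a class are known for promoters with a pyrimidine-rich start, shared with the genes of the translation machinery. The 80 bases from 50 before to 30 after the RefSeq start (GRCm38.p6, gene strand) are given for the 3 hosts. All were lower in FI3OE cells in the main fit, though Gas5 and Snhg12 lost their calls under some alternatives. Capitals mark TATA, and a C followed by at least 4 pyrimidines at the start.
Gas5, chr1:161035116-161035195: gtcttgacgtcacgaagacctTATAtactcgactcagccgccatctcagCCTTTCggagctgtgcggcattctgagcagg
Snhg12, chr4:132308628-132308707: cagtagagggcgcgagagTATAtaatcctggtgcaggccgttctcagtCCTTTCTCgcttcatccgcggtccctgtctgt
Snhg1, chr19:8723437-8723516: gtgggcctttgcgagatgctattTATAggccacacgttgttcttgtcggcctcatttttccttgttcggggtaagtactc
TATA on the gene strand, starting 40 to 23 bases before the start, was found in these 3 entries and in 5.49% of 32851 RefSeq promoters. A C followed by 4 bases that are each C or T, from 5 before to 10 after the start, was found in the Gas5 and Snhg12 entries and in 18.3% of promoters. A second Gas5 entry, with its start at 161034601, held neither. Meg3, which rose in FI3OE, has 2 entries, of which 1 held both and the other neither. GAAA followed by any 2 bases and GAAA again, on either strand of the 300 bases around the start, the core letters of the element that IRF proteins bind, was found in 3.44% of promoters and in none of those of the 6 members with an entry, which are these 3, Kcnq1ot1, Meg3 and Malat1. A match is no proof of a site, and a missing match says only that the letters are not in this window.

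Libraries held 21541334 to 40490283 reads. Irf3 was checked first: it amounted to 94.4 ± 5.2 CPM (reads scaled to a library's total; SD, n = 3) in FI3OE and 57.4 ± 1.0 in WT SVF-derived cells (log2 fold change 0.73, edgeR adjusted p = 3.3e-07), and to 15.5 ± 2.2 in FI3KO and 20.4 ± 2.1 in WT TRAP libraries (SD, n = 6; log2 fold change -0.35, adjusted p = 0.0198 in edgeR). These are reads over the whole gene, and those of the deleted part were not counted apart. Of the TRAP libraries 3 stood apart by rRNA-like reads (reads of rRNA genes and of Gm26917 and Gm42418, loci known to hold rRNA sequence), with 9.62% and 6.69% in FI3KO 1 and 2 and 4.78% in WT 5, against 0.454% to 1.92% in the other 9 and 5.20% to 5.98% in the SVF-derived libraries. WT TRAP 1 and 2 were closer to each other than any other pair of one group but still differed beyond sampling noise, and were kept as separate samples. Nothing in the labels says that replicates came from separate animals or cultures, so p-values measure the spread between these libraries, which may be technical. The 10 adipocyte markers summed to 27596 to 36834 CPM in TRAP and 8414 to 8861 in SVF-derived libraries, the 10 fibroblast markers to 554 to 2249 and 16512 to 17213, and the 10 macrophage markers to 11.5 to 90.2 and 1901 to 2161. In such bulk samples, fewer cells of a type and less RNA per cell cannot be told apart.

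In TPM, which scales reads by transcript length as well as by library, Malat1 was the most abundant of the 8 by mean in every group. TPM also depends on how reads are shared among overlapping transcripts of a gene. In WT TRAP library 5 the 656 nt Malat1-204 was at 687 TPM and the 6983 nt Malat1-201 at 593. Malat1-204 took only 5.36 ± 0.63% of Malat1 reads in WT TRAP (SD, n = 6). In WT SVF-derived adipocytes the levels were 5675 ± 270.4 TPM for Malat1, 161 ± 29 for Neat1, 111 ± 3.3 for Meg3, 86.5 ± 7.4 for H19, 73.2 ± 5.2 for Gas5, 36.6 ± 3.2 for Snhg1, 11.9 ± 2.4 for Snhg12 and 4.33 ± 0.45 for Kcnq1ot1 (SD, n = 3), and no neighbours in this order overlapped. The order was the same in FI3OE cells, again without overlap. In WT TRAP libraries the order was Malat1 with 642 ± 359.6 TPM, Neat1 with 125 ± 70.2, Gas5 with 31.0 ± 6.7, Snhg1 with 13.2 ± 1.4, Meg3 with 11.9 ± 9.2, Snhg12 with 6.19 ± 0.97, Kcnq1ot1 with 0.364 ± 0.172 and H19 with 0.0697 ± 0.128 (SD, n = 6). Only the step from Gas5 to Snhg1 and that from Snhg12 to Kcnq1ot1 had no overlap there. In FI3KO libraries the order of the means was that of WT TRAP, from 763 ± 636 TPM for Malat1 to 0.0207 ± 0.0508 for H19. Meg3 and H19 thus stood above Gas5 in the cultured cells and by mean below it on ribosomes of eWAT adipocytes.

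**Figure D1:**
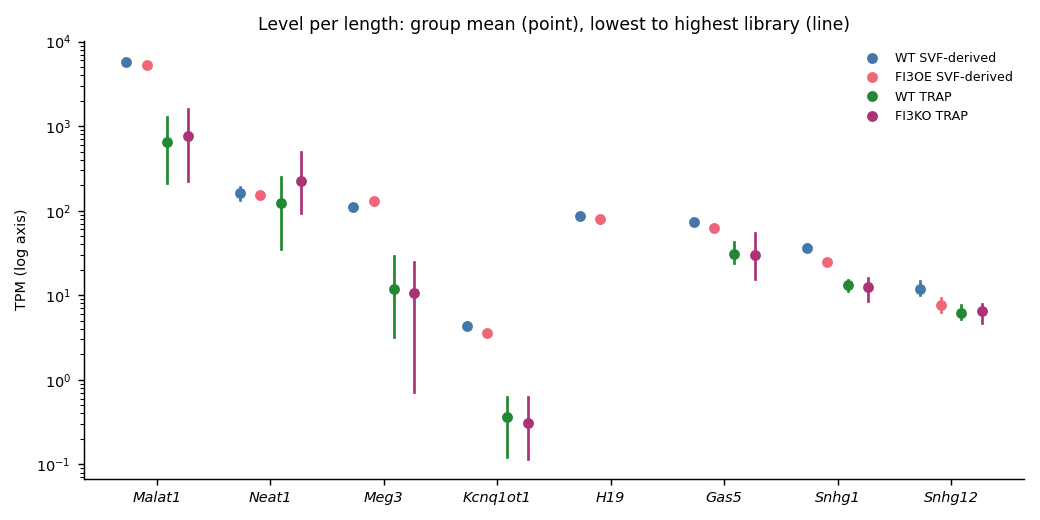
Level of each RNA in TPM (log axis) as the mean (point) and the range from the lowest to the highest library (line) of WT SVF-derived (n = 3), FI3OE SVF-derived (n = 3), WT TRAP (n = 6) and FI3KO TRAP (n = 6) adipocytes. TRAP ranges are wide for Malat1, Neat1, Meg3 and Kcnq1ot1 and narrow for Snhg1 and Snhg12; H19, whose lowest TRAP value is 0, is not drawn for TRAP.

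The first comparison set WT TRAP, the RNA on ribosomes of eWAT adipocytes, against the rRNA-depleted total RNA of WT SVF-derived adipocytes. Malat1, Meg3, Kcnq1ot1, Gas5, Snhg1 and Snhg12 were lower in TRAP by at least 1 on the log2 scale. Each had an adjusted p of at most 0.05, and Neat1 passed neither cutoff. By both cutoffs 29.5% of the 16454 genes tested were lower. The members that passed also had no overlap between the groups, as had 78.3% of all genes tested. H19 is left out here, since it passed the filter on low counts only through the SVF-derived libraries, in which it is high. The 8 members together took 0.0536% to 0.375% of the reads of a TRAP library and 1.39% to 1.67% of an SVF-derived one. The median log2 fold change was -2.38 for the 8 members and -1.75, that of Snhg1, without H19. It was -2.01 for 2059 lncRNA genes and 0.06 for 14107 protein-coding genes, but many of these lncRNA genes also entered the test only through the SVF-derived libraries, since among the TRAP libraries alone 938 lncRNA and 12513 protein-coding genes passed the filter, so no comparison is drawn from these medians. Over all genes tested, 2862 were higher and 4857 lower in TRAP past both cutoffs, with a median of -0.07; scaled by library totals only, these were 1746 and 6115, with a median of -0.53, and every member's log2 fold change stayed negative.

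Malat1 (chromosome 19, 5795690 to 5802672 of GRCm38, minus strand, read from a single exon in its main transcript) was at 15803, 14196 and 14214 CPM in the 3 WT SVF-derived libraries. In WT TRAP libraries 1 to 6 it was at 1105, 966, 456, 1221, 2628 and 1612 CPM. All TRAP libraries were far below all SVF-derived ones, although the highest TRAP library held 5.76 times the level of the lowest. The log2 fold change was -3.01 (SE 0.392, adjusted p = 3.88e-05 in edgeR's test), which is 8.06-fold lower. Malat1 nevertheless remained the most abundant member by mean in the ribosome fraction, with 211 TPM in the lowest TRAP library.

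Neat1, the neighbour of Malat1 on chromosome 19 (5824708 to 5845478, minus strand), differed from it. It was at 387, 318 and 302 CPM in WT SVF-derived libraries and at 209, 169, 57.5, 176, 439 and 205 CPM in WT TRAP libraries 1 to 6, so that TRAP library 5 lay above all cultured cells. The log2 fold change was -0.22 (SE 0.443, adjusted p = 0.654 in edgeR), and its sign turned with an offset for transcript length (0.08) and without WT TRAP replicate 3 (0.01). It was -0.68 when scaled by library totals and -0.91 with the replicate number as a block (adjusted p = 0.0513 in edgeR). Only WT TRAP 1 to 3 share a number with a cultured library, so the block value compares only those with WT SVF-derived. With WT TRAP 1 and 2 alone the log2 fold change was -0.30 with an adjusted p of 0.0151 in edgeR. These were the closest pair of libraries of one group, so that p rests on a small TRAP spread. Each library held 44.2 ± 3.1 Malat1 reads per Neat1 read in WT SVF-derived (SD, n = 3) and 6.62 ± 1.13 in WT TRAP (SD, n = 6), from 40.9 to 47.1 and from 5.30 to 7.93, without overlap.

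Reads of Neat1 are shared out by Salmon between the 20771 nt transcript Neat1-201, which holds paraspeckles together, and shorter forms that overlap its start, mainly Neat1-202 (3004 nt). The long form took 47.2 ± 1.8% of Neat1 reads in WT SVF-derived and 42.8 ± 0.7% in FI3OE cells (SD, n = 3), and 43.1 ± 4.1% in WT TRAP and 30.6 ± 3.7% in FI3KO TRAP libraries (SD, n = 6). FI3OE libraries lay between 42.3% and 43.5%, below the WT range of 45.4% to 49.0%, and FI3KO libraries between 27.2% and 36.8%, below the WT TRAP range of 37.3% to 47.9%. The share was thus lower than in the matched WT with more active IRF3 and with less Irf3 alike. These shares were singled out after their values were seen and were not tested. Long and short forms share sequence, so the split is an estimate.

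Of the imprinted RNAs, Meg3 (chromosome 12, 109541001 to 109571726, plus strand) was at 95.3, 84.6 and 87.0 CPM in WT SVF-derived and at 3.72, 3.19, 2.27, 6.74, 16.3 and 9.39 CPM in WT TRAP libraries 1 to 6. The TRAP levels spread over 7.17-fold without reaching those of cultured cells, and the log2 fold change was -3.25 (SE 0.476, adjusted p = 9.4e-05 in edgeR). Kcnq1ot1 (chromosome 7, 143203458 to 143296549, minus strand, a single unspliced transcript of 93092 nt within Kcnq1) was at 310.3, 256 and 266 CPM in WT SVF-derived and at 20.5, 17.004, 7.68, 22.5, 41.1 and 30.3 CPM in WT TRAP libraries. Its log2 fold change was -3.13 (SE 0.361, adjusted p = 1.51e-05 in edgeR). Kcnq1 itself, on the other strand, did not exceed 0.505 CPM in any library.

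H19 (chromosome 7, 142575529 to 142578143, minus strand), a maternally expressed RNA abundant in fetal tissues, was all but absent from the ribosome fraction. It had 1492, 1452 and 1532 reads in the WT SVF-derived libraries, or 62.4, 67.4 and 60.3 CPM. In WT TRAP, 1 read was counted in library 3, 2 in library 5 and none in the other 4. The 3 reads of 191231869 give 0.0157 CPM (95% exact Poisson interval 0.00324 to 0.0458), and WT SVF-derived cells were 4027 times higher over the group (95% interval 1377 to 19533, which covers counting error only). FI3KO TRAP libraries held 1 H19 read in 187396056. edgeR's fit gave a log2 fold change of -11.20, and -12.19 without WT TRAP library 5, which holds 2 of the 3 reads. For so few reads these values depend on the prior count. H19 entered the fit only through the SVF-derived libraries, so no p-value is given for it. Against a background of 42.1% lower and 38.1% higher, 8 of 10 preadipocyte and fibroblast markers (Postn at 8.11 against 1875 CPM) and 9 of 10 macrophage markers (C1qa at 1.12 against 109 CPM) were lower in TRAP, as H19 was, with 1 of each higher, and their part in the difference was not tested.

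**Figure D2:**
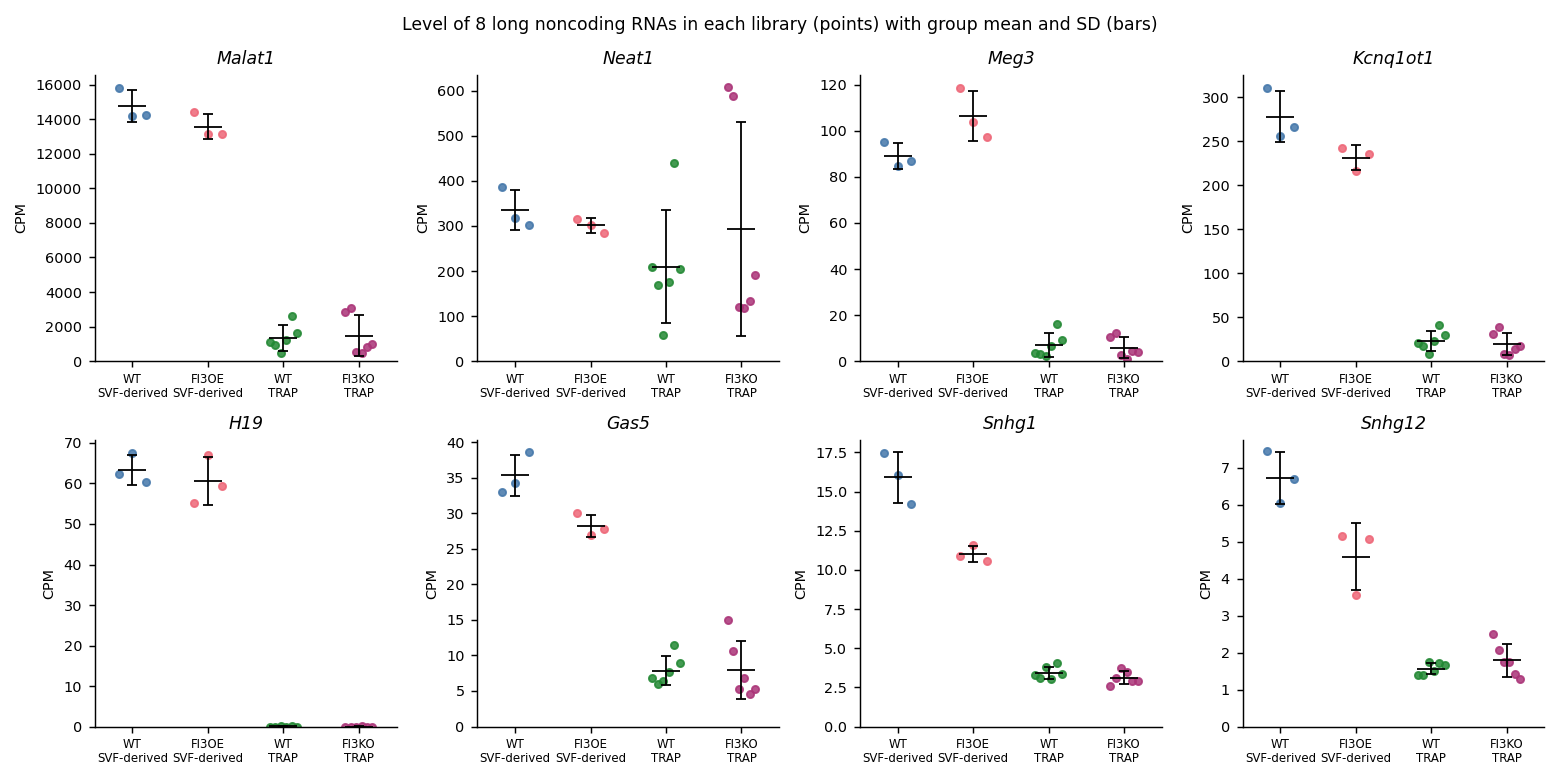
CPM of the 8 RNAs in every library (points) with the mean and SD of each group (bars), in a panel for each gene with its own linear axis from 0. All but Neat1 are lower in the 12 TRAP than in the 6 SVF-derived libraries, and H19 is at or near 0 in TRAP.

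The 3 snoRNA hosts were lower in TRAP by less than Malat1, Meg3 and Kcnq1ot1. Gas5 (chromosome 1, 161034422 to 161038539, plus strand) was at 33.0, 34.3 and 38.6 CPM in WT SVF-derived and between 5.93 and 11.4 CPM in WT TRAP libraries (median 7.21), with a log2 fold change of -1.72 (SE 0.172, adjusted p = 4.98e-06 in edgeR). Snhg1 (chromosome 19, 8723475 to 8726443, plus strand) was at 17.5, 16.1 and 14.2 CPM against 3.05 to 4.04 CPM (median 3.33), a log2 fold change of -1.75 (SE 0.110, adjusted p = 1.21e-07 in edgeR). Snhg12 (chromosome 4, 132308623 to 132311024, plus strand) was at 7.44, 6.03 and 6.69 CPM against 1.39 to 1.75 CPM (median 1.58), a log2 fold change of -1.64 (SE 0.132, adjusted p = 8.6e-07 in edgeR). Among the WT TRAP libraries the highest was 1.26 times the lowest for Snhg12, 1.32 times for Snhg1 and 1.93 times for Gas5. When the average transcript length of each library was taken into account, the log2 fold changes shrank to -0.81 for Gas5, -1.04 for Snhg1 and -0.52 for Snhg12, each still past the adjusted p cutoff (highest adjusted p 0.0271 in edgeR). The transcripts behind this shift in length were examined next.

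Annotation marks 20 of 25 Gas5 and 14 of 18 Snhg1 transcripts as retained-intron forms, and none of the other members has any. Retained-intron transcripts took 87.7%, 83.5% and 83.4% of Gas5 reads in WT SVF-derived libraries and 43.7%, 39.8%, 15.0%, 39.4%, 43.0% and 45.3% in WT TRAP libraries 1 to 6. For Snhg1 the shares were 54.5%, 56.1% and 51.4% against 8.78%, 16.8%, 8.90%, 9.29%, 18.6% and 13.3%. In both genes every TRAP library lay below every SVF-derived library. The means differed by -47.2 points for Gas5 and -41.4 points for Snhg1 (two-sided exact permutation test, p = 0.0238 in each, the smallest p that 6 libraries against 3 allow). Adjusted over the 6 comparisons of such shares, the exact permutation p was 0.0714, the lowest that both could reach. In shares of TPM, which count the long retained-intron forms for less, the difference was -42.4 points for Gas5 and -16.98 for Snhg1 (2.82 ± 0.86% in WT TRAP, SD, n = 6, against 19.8 ± 0.29% in WT SVF-derived, SD, n = 3), with the same adjusted exact permutation p.

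Counted as CPM, the difference in Gas5 lay in the reads assigned to retained-intron transcripts. They amounted to 29.9 ± 2.0 CPM in WT SVF-derived and 3.04 ± 1.36 in WT TRAP, a ratio of 9.85, while the other Gas5 transcripts amounted to 5.37 ± 1.20 and 4.80 ± 1.08, a ratio of 1.12 (SD, n = 3 and n = 6). Spliced Gas5-224 alone was at 4.47 ± 0.55 and 3.54 ± 0.85 CPM, and intron-keeping Gas5-218 at 16.4 ± 1.2 and 1.11 ± 0.51. In Snhg1 the retained-intron transcripts amounted to 8.62 ± 1.16 and 0.438 ± 0.180 CPM, a ratio of 19.7, and the others to 7.30 ± 0.57 and 3.00 ± 0.32, a ratio of 2.43. These ratios are scaled by library totals. On that scale the log2 fold changes of the whole genes were -2.18 for Gas5 and -2.21 for Snhg1, against -1.72 and -1.75 in the main fit. The ratios, that of 1.12 among them, thus depend on the scaling. Snhg12 has no form annotated as retained-intron, but the transcripts shown above divided in the same way. Spliced Snhg12-206 (606 nt) took 67.4 ± 16.4% of Snhg12 reads in WT TRAP and 5.89 ± 5.17% in WT SVF-derived, and Snhg12-210 took 12.0 ± 7.8% and 47.0 ± 1.9%; these were chosen after their values were seen and not tested. Reads of Gas5 numbered 142 to 379 and of Snhg1 65 to 123 per TRAP library, which limits the precision of the shares. Zbtb37, which overlaps Gas5 on the other strand, was at 102 ± 8.8 CPM in WT TRAP and 69.2 ± 4.4 in WT SVF-derived, with strand not known to be kept. Genes of snoRNAs lie on the same strand within Gas5, Snhg1 and Snhg12. Whether reads of snoRNAs or their precursors were counted with the intron-keeping transcripts was not tested.

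**Figure D3:**
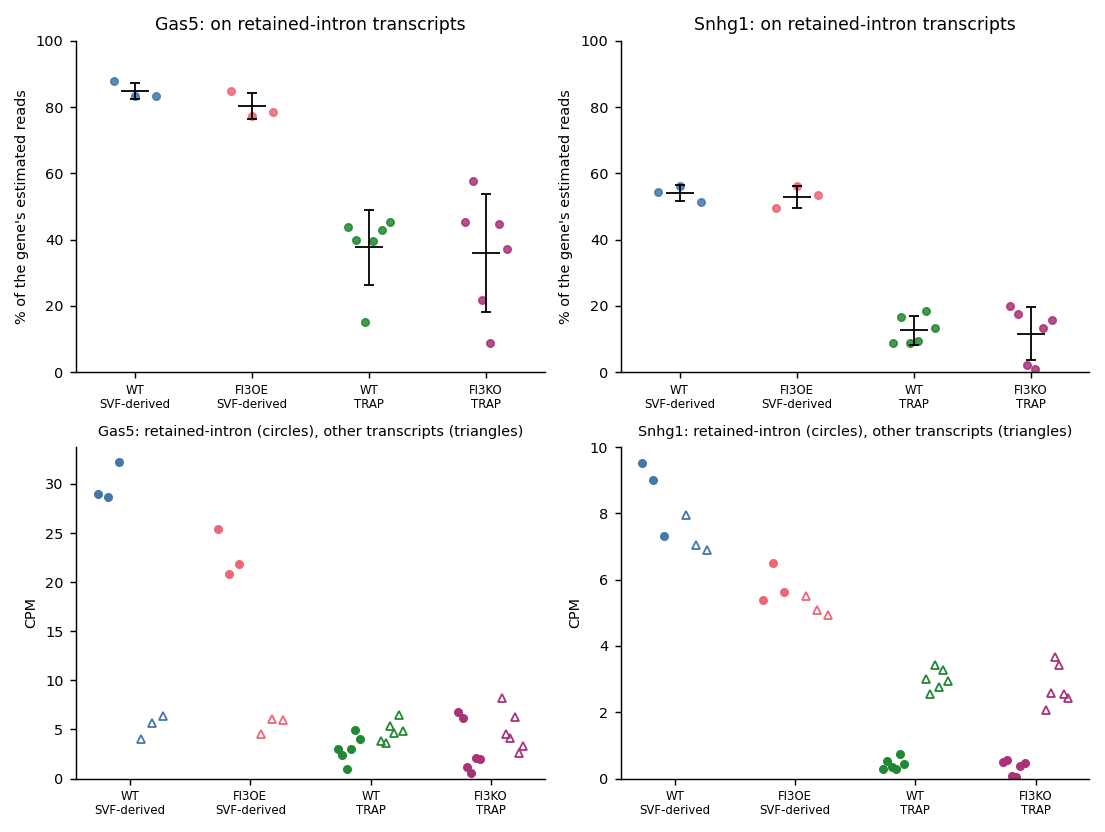
Upper panels show the share (%) of Gas5 and Snhg1 reads on retained-intron transcripts in each library, with mean and SD; lower panels show CPM of retained-intron (circles) and other transcripts (triangles). The shares of WT TRAP libraries (at most 45.3% for Gas5 and 18.6% for Snhg1) lie below those of all SVF-derived libraries, and the group means of the Gas5 triangles lie between 4.80 and 5.53 CPM, with single libraries from 2.57 to 8.19.

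Of 17 other snoRNA host lncRNA genes, 12 were tested in TRAP against SVF-derived and 9 were lower by adjusted p (background 42.1%) and none higher (38.1%), with a median log2 fold change of -1.35. Of all 2059 lncRNA genes tested, 1455 were lower and 258 higher by adjusted p, under the limit of the filter given above. The count of hosts is therefore not read as particular to them. Snhg17 fell by 2.83 on the log2 scale, from 21.1 ± 1.4 to 2.17 ± 0.72 CPM, and Snhg20 by 2.70. Of 15 other nuclear lncRNAs tested, 11 were lower and 3 higher. Only 12 passed the filter on low counts among the TRAP libraries alone, so this count is not read as a difference from the background either. Xist, which coats the inactive X chromosome and is therefore made in female cells, was at 928 ± 26 CPM in WT SVF-derived and 0.0654 ± 0.0356 in WT TRAP libraries. The Y-linked gene Ddx3y was read in all libraries, at 63.7 to 70.5 CPM in the 6 SVF-derived and 165 to 273 CPM in the 12 TRAP libraries. Each SVF-derived library thus held RNA of both sexes and the TRAP libraries that of males, so the Xist difference cannot be told apart from donor sex. The methods name SVF donors of both sexes in one place and males in another. Ftx, another RNA of that locus, fell by 3.12 on the log2 scale. Peg13, another imprinted RNA, went the other way, with 82.5 ± 11.4 CPM in TRAP and 42.8 ± 0.5 in SVF-derived cells (log2 fold change 1.41), as did Trp53cor1 (0.87). Of the cytoplasmic lncRNAs 2 were tested and 1 was lower, and Rmrp, the RNA of a nuclear and mitochondrial ribonuclease, was at 409 CPM in SVF-derived cells and 1.19 in TRAP.

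Among 13 imprinted neighbours of Meg3, H19 and Kcnq1ot1 tested, 9 were lower (background 42.1% of all genes) and 3 higher (38.1%) in TRAP. Only 8 neighbours passed the filter on low counts among the TRAP libraries alone. Some were thus tested here only through the SVF-derived libraries in which they are high, Dlk1 and Dio3 among them. For this reason no median is given, and the count is not read as a difference from the background. Dlk1, an inhibitor of adipocyte differentiation next to Meg3, was at 23.1 ± 1.8 CPM in WT SVF-derived and 0.0231 ± 0.0406 in WT TRAP libraries, and Dio3, which inactivates thyroid hormone, at 12.1 ± 1.1 and 0.00439 ± 0.0108. Slc22a18 (log2 fold change 1.58) and Nap1l4 (0.88), which lie beyond Kcnq1ot1, were higher in TRAP. Of the mRNAs of proteins from the bodies to which Malat1 and Neat1 belong, 8 of 14 nuclear speckle genes were lower and 5 higher (Luc7l3 -1.58, Srsf11 -1.15, Srsf1 0.59), and 8 of 15 paraspeckle genes lower and 2 higher (Taf15 -1.05, Sfpq -0.96, Hnrnpk 0.50, all log2 fold changes past the adjusted p cutoff in edgeR). Of 16 nonsense-mediated decay factors, 9 were higher (Smg5 1.01, Gspt1 0.95) and 3 lower (Upf3b -0.90).

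**Figure D4:**
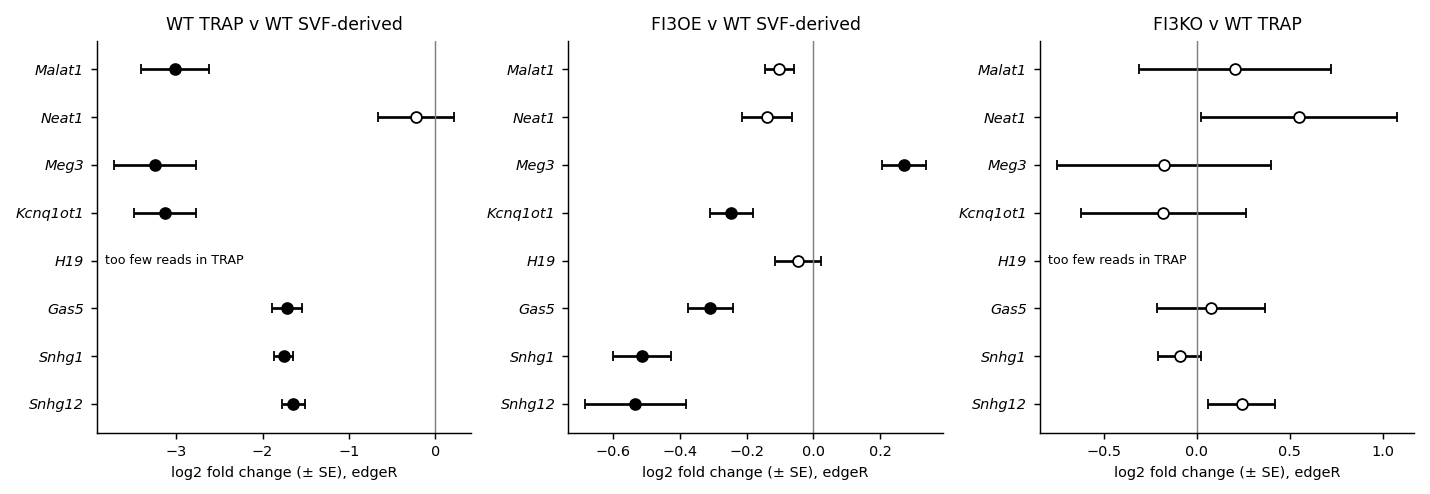
Log2 fold change (± SE, edgeR) of each member in the 3 comparisons, WT TRAP against WT SVF-derived, FI3OE against WT SVF-derived and FI3KO against WT TRAP, each panel with its own axis. The members lie below 0 in the first panel (Neat1 at -0.22), close to 0 with small errors in the second (Meg3 at 0.27), and on both sides of 0 with wide errors in the third.

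In the second comparison, FI3OE against WT SVF-derived adipocytes, the members moved by small amounts. Meg3 rose, and Kcnq1ot1, Gas5, Snhg1 and Snhg12 fell, while Malat1, Neat1 and H19 did not pass the test. Thus 1 of 8 members was higher by adjusted p (background 20.2% of 16105 genes tested) and 4 were lower (16.8%). None reached a log2 fold change of 1 in either direction, which 3.62% of genes did past the adjusted p cutoff. The 5 that passed had no overlap between the groups, as had 49.8% of all genes. The median log2 fold change was -0.19 for the members, -0.22 for 2017 lncRNA genes, of which 261 were lower and 70 higher, and 0.01 for 13798 protein-coding genes.

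Snhg1 was at 17.5, 16.1 and 14.2 CPM in WT and 10.9, 11.6 and 10.6 CPM in FI3OE libraries. The highest FI3OE library was thus below the lowest WT library, and the gene fell by 0.51 on the log2 scale (SE 0.0875, adjusted p = 0.000752 in edgeR). Snhg12 was at 7.44, 6.03 and 6.69 CPM in WT and 5.16, 3.54 and 5.06 CPM in FI3OE, and fell by 0.53 (SE 0.150, adjusted p = 0.0161 in edgeR). It is the faintest of the 8 in read number here, with 96 to 187 reads a library, and its adjusted p was 0.0643 in edgeR without WT replicate 1. Gas5 was at 33.0, 34.3 and 38.6 CPM in WT and 29.97, 27.0 and 27.8 CPM in FI3OE, and fell by 0.31 (SE 0.0665, adjusted p = 0.00354 in edgeR). With the offset for transcript length, the log2 fold change of Gas5 was nearer to 0, at -0.16 (adjusted p = 0.174 in edgeR), while that of Snhg12 was -0.56 (adjusted p = 0.0655 in edgeR), and neither passed the test.

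The retained-intron share of reads overlapped between the groups here. It was 84.9 ± 2.5% of Gas5 reads in WT and 80.3 ± 4.0% in FI3OE (exact permutation p = 0.3, adjusted 0.6), and 54.0 ± 2.4% and 53.0 ± 3.4% of Snhg1 reads (exact permutation p = 0.7, adjusted 0.842), where 3 libraries against 3 allow no p below 0.1. In shares of TPM the Snhg1 groups did not overlap, with 16.4%, 19.3% and 17.8% in FI3OE and 19.95%, 19.99% and 19.5% in WT, a difference of -1.97 points (adjusted exact permutation p = 0.2). Retained-intron transcripts of Gas5 amounted to 29.9 ± 2.0 CPM in WT and 22.7 ± 2.4 in FI3OE, and the other Gas5 transcripts to 5.37 ± 1.20 and 5.53 ± 0.85. In Snhg1 both kinds were lower, at 8.62 against 5.84 CPM and at 7.30 against 5.18 CPM.

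Meg3 was at 95.3, 84.6 and 87.0 CPM in WT and 119, 104 and 97.2 CPM in FI3OE, and rose by 0.27 on the log2 scale (SE 0.0652, adjusted p = 0.00671 in edgeR). Kcnq1ot1 was at 310.3, 256 and 266 CPM in WT and 243, 216 and 235 CPM in FI3OE, and fell by 0.25 (SE 0.0641, adjusted p = 0.0108 in edgeR). H19 had 62.4, 67.4 and 60.3 CPM in WT and 55.3, 67.0 and 59.5 CPM in FI3OE, with a log2 fold change of -0.04 (SE 0.0690, adjusted p = 0.654 in edgeR) whose sign turned without FI3OE replicate 1 (0.02). The 3 imprinted RNAs thus showed a rise, a fall and no call. In a fit of all 18 libraries together, 12 of which are TRAP libraries, Snhg1 kept its call (adjusted p = 0.0164 in edgeR) and Meg3, Kcnq1ot1, Gas5 and Snhg12 lost it, although their log2 fold changes were within 0.01 of those above (0.28, -0.24, -0.30 and -0.53).

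Malat1 was at 15803, 14196 and 14214 CPM in WT and 14436, 13131 and 13149 CPM in FI3OE, with a log2 fold change of -0.10 (SE 0.0422, adjusted p = 0.0813 in edgeR). The groups overlapped through FI3OE replicate 1, without which the adjusted p was 0.0289. It was 0.00217 in edgeR with the replicate number as a block. Neat1 was at 387, 318 and 302 CPM in WT and 316, 303 and 284 CPM in FI3OE (log2 fold change -0.14, SE 0.0744, adjusted p = 0.172 in edgeR). The fitted values were 1.07-fold lower for Malat1 and 1.10-fold lower for Neat1.

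Beside a background of 16.8% of all genes lower and 20.2% higher in FI3OE, 2 of 12 other snoRNA hosts were lower and none higher (Snhg17 fell by 0.54 and Snhg18 by 0.36 on the log2 scale), with a median of -0.23. Of 14 other nuclear lncRNAs 6 were lower (Firre fell by 0.40 and Dleu2 by 0.39) and 1 higher (Pvt1, 0.34). Nuclear speckle genes were lower in 8 of 14 cases and higher in none, by small amounts (Srsf5 fell by 0.27, Srsf6 by 0.26). Paraspeckle genes were lower in 5 of 15 (Taf15 fell by 0.55, Hnrnph3 by 0.34) and higher in 1 (Smarca4, 0.22). Imprinted neighbours were higher in 3 of 12 and lower in 1. Slc22a18 rose by 1.29 on the log2 scale, and Igf2, the growth factor gene next to H19, rose by 1.08, from 3.49 ± 0.42 to 7.27 ± 0.86 CPM, while H19 did not pass the test. Cdkn1c, a cell cycle inhibitor that Kcnq1ot1 silences on the paternal allele, fell by 0.19 together with Kcnq1ot1. Of 16 nonsense-mediated decay factors 2 were higher (Upf2 0.25, Smg1 0.11) and 1 lower. None of the cytoplasmic lncRNAs (2 tested) and not Rmrp passed the test. Of cell type markers, 4 of 10 adipocyte genes were higher and 4 lower, and 2 of 10 macrophage genes higher and 3 lower, led by Mrc1, which fell by 0.87; the part of these cells in the members' changes was not tested.

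In the third comparison, FI3KO against WT TRAP, none of the 7 members tested passed, against 37.4% of the 13624 genes tested. None was higher (background 19.1%) or lower (18.3%), all 7 overlapped between genotypes (15.2% of genes did not), and H19 had too few reads for a test. At an unadjusted p under 0.05 none passed either, with 0.206 for Snhg12 as the lowest in edgeR, and DESeq2 called none (lowest adjusted p 0.379). Log2 fold changes were 0.21 for Malat1 (SE 0.516), 0.55 for Neat1 (SE 0.527), -0.18 for Meg3 (SE 0.577), -0.18 for Kcnq1ot1 (SE 0.443), 0.08 for Gas5 (SE 0.293), -0.09 for Snhg1 (SE 0.116) and 0.24 for Snhg12 (SE 0.181). Errors were largest for Meg3, Neat1, Malat1 and Kcnq1ot1 and small for Snhg1 and Snhg12.

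Levels of several members differed widely between libraries of the same genotype. Malat1 was at 2846, 3094, 554, 469, 811 and 1018 CPM in FI3KO libraries 1 to 6, and Neat1 at 608, 588, 121, 118, 133 and 190.3. Meg3 was at 10.4, 12.3, 2.78, 1.02, 4.52 and 4.00 CPM, and Kcnq1ot1 at 31.2, 39.2, 8.70, 7.45, 14.0 and 16.9 CPM. In all 4, FI3KO libraries 1 and 2 stood above the other 4. In WT, library 5 had the highest and library 3 the lowest value of each of the 4 (Malat1 2628 and 456 CPM). Gas5 followed in part, at 15.0, 10.7, 5.26, 6.84, 4.64 and 5.21 CPM in FI3KO. Snhg1 did not, with 2.57 CPM in FI3KO library 1 as the lowest and 3.74 in library 3 as the highest.

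FI3KO libraries 1 and 2 and WT library 5 are also those with the highest share of rRNA-like reads, and WT library 3 has the lowest share. Levels of Malat1, Neat1, Meg3 and Kcnq1ot1 across the 12 TRAP libraries moved with that share, and its part in their levels was not tested. The ratio of Malat1 to Kcnq1ot1 reads varied far less than either RNA, at 56.9 ± 4.1 in WT and 69.1 ± 13.1 in FI3KO TRAP (SD, n = 6), and it was 53.3 ± 2.3 in WT SVF-derived cells (SD, n = 3). Malat1 reads per Neat1 read were 4.98 ± 0.74 in FI3KO and 6.62 ± 1.13 in WT TRAP, with overlapping ranges (3.96 to 6.08 and 5.30 to 7.93). The summed adipocyte markers were lowest in FI3KO libraries 1 and 2 (27596 and 28847 CPM, against 29490 to 33356 in the other 4) and in WT library 5 (30750 CPM), and highest in WT library 3 (36834 CPM). Among FI3KO libraries 3 to 6, both the marker sums and Malat1 were higher in 5 and 6 than in 3 and 4. The part of these sums was not tested either.

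Because of this, the genotypes were also compared within replicates 1 and 2 and within replicates 3 to 6, a split chosen after the data had been seen and for which the labels give no reason. In replicates 1 and 2, Malat1 was higher in FI3KO by 1.58 on the log2 scale (adjusted p = 0.00552 in edgeR), Neat1 by 1.73 (0.00786), Meg3 by 1.78 (0.0107) and Kcnq1ot1 by 0.97 (0.0334). In replicates 3 to 6 the log2 fold changes were -1.01, -0.60, -1.43 and -1.06, none of which passed the test. Gas5 was lower there, with a log2 fold change of -0.60 (adjusted p = 0.0221 in edgeR). Since the members' values prompted the split, the p-values within each set are description only. WT TRAP 1 and 2 were also the closest pair of libraries of one group, which makes the WT spread in that set small. An interaction term between genotype and set passed for 6 of 7 members, against 26.5% of all genes, but since these members' values prompted the split, it describes them and is no independent evidence that the effect differed. Snhg1 was at -0.10 and -0.09 in the 2 sets. No direction for FI3KO is given, since no member passed the test over all libraries and the sign turned with single libraries left out for Malat1, Gas5, Meg3 and Kcnq1ot1. Snhg1 stayed within -0.14 to -0.03 under the alternatives run.

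Retained-intron shares overlapped between the genotypes, with 35.9 ± 17.7% of Gas5 reads in FI3KO and 37.7 ± 11.3% in WT TRAP (exact permutation p = 0.842), and 11.7 ± 8.1% and 12.6 ± 4.3% of Snhg1 reads (exact permutation p = 0.799; SD, n = 6 each). In FI3KO libraries the Gas5 share ran from 8.79% in library 4 to 57.6% in library 2, and the Snhg1 share from 1.02% in library 4 to 19.97% in library 1.

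Beside a background of 19.1% of all genes higher and 18.3% lower in FI3KO TRAP, 1 of 12 other snoRNA hosts was higher (Snhg18, by 0.86 on the log2 scale). Peg13 was higher, with 136 ± 12.7 against 82.5 ± 11.4 CPM (log2 fold change 0.77), and Trp53cor1 lower, with 4.76 ± 0.89 against 8.64 ± 1.24 CPM (-0.81), among 12 nuclear lncRNAs tested. Paraspeckle genes were higher in 5 of 15 (Hnrnph3 0.88, Pspc1 0.51) and lower in none, and nuclear speckle genes higher in 3 of 14 (Srsf7 0.57, Srsf3 0.46) and lower in none. Hnrnph3 thus fell in FI3OE and was higher in FI3KO, the controls of the 2 comparisons being separate libraries. Of 8 imprinted neighbours tested, 1 was lower (Tssc4, -0.55), and of 16 nonsense-mediated decay factors 2 were higher and 3 lower, none by more than 0.38 on the log2 scale. The cytoplasmic lncRNA 2900097C17Rik was higher (0.31), and Rmrp did not pass. Of the macrophage markers 8 of 9 tested were lower in FI3KO, with sums of 11.5 to 38.5 against 32.5 to 90.2 CPM, and 3 of 9 fibroblast markers lower and 1 higher. Of 10 adipocyte markers 5 were higher (Cfd 1.83, Retn 0.96) and 1 lower (Lep -1.63, at 2975 against 9581 CPM). Endothelial markers summed to 72.5 and 109 CPM in FI3KO 1 and 2, the libraries with the most rRNA-like reads, and to 25.3 to 46.3 in the other 10 TRAP libraries. Mesothelial markers summed to 3.28 to 28.0 CPM in TRAP and skeletal muscle markers, nearly all Acta1, to 38.8 to 121. The part of these markers in the members' levels was not tested.

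For likeness, Pearson's r was taken over the 18 libraries and 11300 genes (mean log2 CPM 1 or more) on log2 CPM with the mean of each of the 4 groups removed. It describes how a gene varied among libraries of one group. Malat1 spread 5.76-fold in WT TRAP and 6.60-fold in FI3KO TRAP, against 1.11-fold in WT and 1.10-fold in FI3OE SVF-derived libraries. Neat1, Meg3, Kcnq1ot1 and Gas5 also spread more widely in both TRAP groups. For these members r thus rests mainly on the TRAP libraries, and that of Malat1 with Kcnq1ot1 was 0.987 in TRAP alone. Malat1 was most like Uba7 (0.988), Kcnq1ot1 (0.986) and Gm26917 (0.984), a locus counted above among the rRNA-like reads. Neat1 was most like Malat1 (0.974), Ddx17 (0.970) and Lncpint (0.966). Kcnq1ot1 was most like Malat1, Lncpint (0.984) and 6720427I07Rik (0.982). Malat1 and Kcnq1ot1 were thus each among the 3 genes closest to the other, while Neat1 was not among the 3 closest to Malat1. Meg3 was most like Tmem72 (0.959), Lrrtm2 (0.957) and AC113485.1 (0.954), and Gas5 most like Ccnb1ip1 (0.967), Gm37724 (0.957) and Crip2 (0.930). The smaller hosts had no close partner, with Med4 (0.846), Flot1 (0.801) and Zc3h12d (0.772) for Snhg1 and Cebpb (0.883), ENSMUST00000238982.1 (0.882) and Ubn1 (0.864) for Snhg12. H19 was not compared, since it was at or near 0 in 12 libraries.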

How the data were processed

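The deposited tables hold, per the file headers, Salmon's estimated counts (NumReads), TPM and effective length for 118733 transcripts in each of 18 libraries. The authors removed rRNA, amplified for 12 PCR cycles, trimmed reads with bcl2fastq and fastp and ran Salmon 1.4.0 on GENCODE M24 (GRCm38) with sequence and GC bias correction. No source states a strand-keeping kit, so reads of Kcnq1ot1 and Kcnq1, of Gas5 and Zbtb37, and of Malat1 and Meg3 and their antisense partners cannot be told apart by strand. Deposited TPM values were used for levels per length.

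Transcripts were assigned to genes with GENCODE M21 (99.3% matched; 883 were kept as genes of their own), and estimated counts were summed and rounded. CPM scales reads to a library's total. In R 4.3.3, edgeR 4.0.16 (filterByExpr, TMM, quasi-likelihood test, Benjamini-Hochberg adjustment) was fitted separately to the libraries of each comparison without covariates. A gene passed at an adjusted p of at most 0.05, and both cutoffs also require a log2 fold change of 1 or more in either direction, as in the study's methods. Shares of reads were compared in SciPy 1.17.1 by two-sided exact permutation tests. Fits were tested on simulated data. Named genes are all 8 members, the 3 genes most like each, and in each list up to 2 of the highest and lowest changes past the adjusted p cutoff whose mean log2 CPM is 1 or more. Members and lists were chosen with earlier results of these data known, and Mir17hg, a microRNA host, was taken out of the list of snoRNA hosts after its values had been seen. The log2 fold change of Mir17hg was -2.45 in TRAP against SVF-derived and -0.67 in FI3OE, both past the adjusted p cutoff. It was -0.34 in FI3KO, which did not pass. Alternatives were DESeq2 1.42.0, its size factors, library totals, no or a stricter low-count filter, a length offset, 18 libraries together, removal of mitochondrial and rRNA-like genes, the replicate number as a block, parts of the TRAP replicates, and each library left out. Intervals cover counting error only, since PCR reads are not independent molecules.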

Additional observations from a re-analysis of the deposited data

Results flagged for a closer look

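For 6 of the 7 members tested an interaction term between FI3KO and the set of replicates (1 and 2 against 3 to 6) passed the adjusted p cutoff. The difference of the log2 fold changes was 2.59 for Malat1 (adjusted p = 0.0190 for edgeR's interaction term), 2.32 for Neat1 (0.0379), 3.20 for Meg3 (0.0185), 2.02 for Kcnq1ot1 (0.0474), 1.67 for Gas5 (0.00293) and 0.81 for Snhg12 (0.0486). The share of rRNA-like reads was 6.69% to 9.62% in FI3KO replicates 1 and 2 and 1.42% to 1.45% in WT replicates 1 and 2, and its part was not tested. The split was chosen after these values had been seen, so the term is no independent evidence of a difference, and 26.5% of all genes passed it.

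WT TRAP replicate 3 had a retained-intron share of Gas5 reads of 15.0%, far below the other 5 WT TRAP libraries, with a ratio of gap to range of 0.807 by Dixon's criterion. Of 18 groups of 6 libraries examined in this way it was the only such value, and chance gives about 1 in 20. The same library had the lowest rRNA-like share (0.454%) of all 18.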

How the results depend on the processing

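In WT TRAP against WT SVF-derived, Malat1, Meg3, Kcnq1ot1, Gas5, Snhg1 and Snhg12 kept their direction and an adjusted p of at most 0.05 under the alternatives run. With the length offset Gas5 (-0.81) and Snhg12 (-0.52) missed the fold-change cutoff. H19 kept its direction but had no value with at least 10 counts. Neat1 turned to 0.076 with the length offset, ranged from -0.57 to 0.0094 with single libraries left out, and was -0.68 with library totals and -0.91 with the replicate block (adjusted p = 0.0513 in edgeR). The number of genes past both cutoffs moved from 7719 to 4035 with at least 10 counts in every library and to 13195 without the fold-change cutoff. In FI3OE it moved from 583 to 337 in the fit of 18 libraries and to 5960 without the fold-change cutoff, and in FI3KO from 901 to 574, 5095, 191 and 1868 with at least 10 counts, without the fold-change cutoff, in replicates 1 and 2 and in replicates 3 to 6. H19 in FI3OE ranged from -0.13 to 0.021 with single libraries left out. In FI3KO, Malat1 then ranged from -0.16 to 0.52, Gas5 from -0.23 to 0.21, Meg3 from -0.56 to 0.27 and Kcnq1ot1 from -0.52 to 0.059. Replicates 1 and 2 gave 1.78 for Meg3 and 0.97 for Kcnq1ot1, and replicates 3 to 6 gave -1.01 for Malat1, -0.60 for Neat1 and for Gas5 and -0.055 for Snhg12. Differences in retained-intron share between FI3KO and WT TRAP ranged from -6.35 to 3.61 points for Gas5 and from -2.62 to 1.17 for Snhg1 with single libraries left out, with 0.285 points for Snhg1 in shares of TPM. Between FI3OE and WT, Snhg1 ranged from -2.62 to 0.721. The cause of these shifts was not tested.

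The replicate numbers did not pair the libraries (correlations of deviations at the same number from -0.291 to 0.104), and with them as a block 7694, 579 and 736 genes passed both cutoffs in the 3 comparisons. In WT TRAP against WT SVF-derived, only WT TRAP 1 to 3 share a number with a cultured library, so that block fit compares only those. The block turned FI3KO to -0.031 for Malat1 and -0.037 for Gas5 and changed a member's call only for Malat1 in FI3OE. Depth limits Snhg12 (40 to 64 reads per TRAP library) and H19, which was below 3 reads in each TRAP library.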
